A study of Mus musculus with 12 samples.

Results

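The insulin signaling and glucose uptake genes are 9 genes that carry the insulin signal from the receptor to the glucose transporter: Insr, Irs1, Irs2, Pik3r1, Akt1, Akt2, Phlpp1, Foxo1 and Slc2a4. They were chosen by gene symbol from the 49315 genes of the count table, and each symbol matched 1 Ensembl gene. All 9 were among the 18702 genes that passed the filter on low counts.

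Insulin binds its receptor on the surface of the adipocyte, and the receptor phosphorylates the adaptor proteins IRS1 and IRS2, which recruit phosphatidylinositol 3-kinase (PI3-kinase). The lipid made by this kinase brings AKT to the membrane, where it is switched on, and phosphatases switch it off again. Active AKT keeps the transcription factor FOXO1 out of the nucleus and sends vesicles with the glucose transporter GLUT4, the product of Slc2a4, to the cell surface, which is how fat takes up glucose after a meal.

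RNA was sequenced from the epididymal white adipose tissue (eWAT) of 12 male mice, 1 library per mouse, all fed a high-fat diet with 60% of calories from fat for 12 weeks. Flox mice (Mir181a2b2 flox/flox) carry the Mir181a2b2 microRNA locus between loxP sites and served as controls, and KO mice (Mir181a2b2-/-) lack it in all tissues. Mice of each genotype were injected intraperitoneally every week with vehicle or with methotrexate (MTX) at 1 mg/kg, an antifolate used against inflammation, which gave 4 groups of 3 mice: flox vehicle, KO vehicle, flox MTX and KO MTX. The ages were given only as matched. The paper states that littermates matched by cage were used, and which of these mice shared a litter or cage was not given.

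Counted reads per library ranged from 19495310 to 23976469, and values are given as CPM, read counts relative to library size scaled with TMM factors, in the order of the replicate numbers (1, 3 and 4 for flox vehicle, 1, 2 and 3 for KO vehicle, 1, 2 and 4 for flox MTX, and 2, 3 and 4 for KO MTX). The tissue label was borne out by adipocyte markers: each of 20 adipocyte genes was detected in every group, and their summed level ranged from 24447 to 91332 CPM over the libraries. The deletion could not be checked, since the precursors of the deleted microRNAs had 0 counts in nearly every library. The flox vehicle libraries stood apart. The summed level of 12 epididymis markers was 4428 CPM in replicate 1, 11907 CPM in replicate 3 and 1503 CPM in replicate 4. In the other 9 libraries it was 28.8 to 516 CPM. Testis germ cell markers (8 genes) summed to 492, 331 and 151 CPM in replicates 1, 3 and 4, against 1.91 to 13.3 CPM in the other 9 libraries. Values that rest on the flox vehicle group are therefore also given without replicates 1 and 3. This was done for the 9 genes and for the pathway genes named with a fold change and a call. Permutation tests were not repeated without these replicates. Replicate 4, which remains, was also above those 9 libraries for both marker lists. Leaving out the other replicates therefore lowers these transcripts without removing them. Macrophage markers (15 genes, none at 0) summed to 675 to 1265 CPM in flox vehicle mice, 5575 to 11154 CPM in KO vehicle mice, 913 to 5786 CPM in flox MTX mice and 7565 to 12853 CPM in KO MTX mice. Fibroblast markers (9 genes, none at 0) were also higher in the KO groups, at 7113 to 11323 CPM under vehicle and 7329 to 8933 CPM under MTX, against 1824 to 3587 CPM and 3557 to 6519 CPM in the flox groups. Endothelial markers (11 genes, none at 0) summed to 429 to 629 CPM in flox vehicle, 915 to 1377 CPM in KO vehicle, 417 to 907 CPM in flox MTX and 604 to 1091 CPM in KO MTX mice. In bulk tissue, fewer cells of a type and less RNA per cell cannot be told apart, and the part of these marker lists in the differences below was not tested.

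The deleted locus on chromosome 2 encodes miR-181a and miR-181b, whose mature sequences from RefSeq (GRCm38.p6) are shown because their seed, bases 2 to 8 in capitals, is what pairs with target messages. The miR-181a-5p sequence at chr2:38852741-38852763 (+ strand) is also made from Mir181a-1 on chromosome 1, and miR-181b-5p at chr2:38853845-38853868 (+ strand) is also made from Mir181b-1 there. The paralogs miR-181c-5p and miR-181d-5p carry the same seed, so deletion of the locus leaves other copies of it in the genome.
miR-181a-5p: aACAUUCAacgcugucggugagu
miR-181b-5p: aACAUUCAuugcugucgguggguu

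The 7-base match to that seed, TGAATGT, was searched on the transcribed strand in the longest 3′ UTR of each gene in GENCODE release M21 (GRCm38). It occurred once each in Insr, Irs2, Pik3r1 and Akt2 and not in Irs1, Akt1, Phlpp1, Foxo1 or Slc2a4. The 4 sites are printed with 6 flanking bases on each side, with the match in capitals. They lie in the 3′ UTR at chr8:3153276-3153294 (- strand) in Insr, chr8:10985464-10985482 (- strand) in Irs2, chr13:101680636-101680654 (- strand) in Pik3r1 and chr7:27638992-27639010 (+ strand) in Akt2. The matches of Insr and Irs2 are followed by an A.
Insr: atgttaTGAATGTaaattt
Irs2: caaagtTGAATGTaaattg
Pik3r1: gtcactTGAATGTgctcag
Akt2: ttaaagTGAATGTttgagt
A match was present in 17.4% of 15376 UTRs, and in 25.6% to 44.5% of UTRs of a length similar to those of these 4 genes, and is given here only as a description of the sequences. None of these 4 genes was called higher in KO mice with TMM scaling, and Insr and Irs2 fell under vehicle.

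Promoters of 7 of the 9 genes were matched in RefSeq (250 bases before to 50 bases after the start), and those of Insr and Slc2a4 were not. The letters CACGTG, known as the E-box, were found in the promoters of both insulin receptor substrates, 115 bases before the start of Irs1 and 44 bases before that of Irs2, and in 7.24% of 27025 promoters. These windows of 30 bases, at chr1:82291537-82291566 and chr8:11008956-11008985 (both on the - strand), are shown because Irs1 and Irs2 had the lowest KO to flox ratios of the 9 genes under vehicle. The letters TGTTTAC, the core bound by FOXO proteins, were searched on both strands and found in the Akt1 promoter, 161 bases before the start, and in none of the other 6, against 3.55% of all promoters. Both motifs were picked after the sequences were seen.
Irs1: cagaggctccgtCACGTGttttgctcctct
Irs2: gtaacgcagagtCACGTGttgttttgctct

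Insr encodes the insulin receptor (ENSMUSG00000005534, chromosome 8, 3122061 to 3279617). Its levels were 132, 107 and 122 CPM in flox vehicle mice and 79.1, 74.5 and 68.1 CPM in KO vehicle mice. Under MTX they were 109, 91.0 and 143 CPM in flox mice and 68.9, 58.7 and 82.4 CPM in KO mice. All 6 KO mice were below all 6 flox mice. The log2 fold change of KO over flox was -0.70 (SE 0.18, 95% CI -1.12 to -0.28) under vehicle, a decrease of 1.63-fold that passed edgeR's quasi-likelihood test at an adjusted p of 0.0147. Under MTX it was -0.71, with an adjusted p of 0.104 in the same edgeR fit, just outside the limit of 0.1.

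Irs1 encodes insulin receptor substrate 1 (ENSMUSG00000055980, chromosome 1, 82233101 to 82291416), 1 of the adaptors that dock PI3-kinase at the receptor. It had the fewest reads of the 9 genes, 50 to 328 counts per library. Its levels were 14.2, 5.98 and 10.3 CPM in flox vehicle mice and 4.13, 3.09 and 2.34 CPM in KO vehicle mice. Under MTX they were 5.81, 10.1 and 16.9 CPM in flox mice and 4.13, 2.34 and 3.98 CPM in KO mice. The genotypes did not overlap under either treatment, although the flox mice varied widely. Irs1 fell in KO mice under vehicle (log2 fold change -1.67, SE 0.44, adjusted p = 0.0156 by edgeR), and its log2 fold change under MTX was -1.65 (adjusted p = 0.104).

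Irs2 encodes the other adaptor of this step (ENSMUSG00000038894, chromosome 8, 10984681 to 11008458). It stood at 84.3, 54.6 and 77.5 CPM in flox vehicle mice and at 20.6, 19.8 and 18.8 CPM in KO vehicle mice. With MTX the levels were 38.2, 50.3 and 58.5 CPM in flox mice and 25.9, 27.9 and 20.2 CPM in KO mice. The KO mice were tightly grouped and lay below every flox mouse, and the gap was narrower under MTX. Irs2 fell in KO vehicle mice with a log2 fold change of -1.87 (SE 0.20, adjusted p = 0.00271 by edgeR), and its log2 fold change under MTX was -0.99 (adjusted p = 0.104).

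Pik3r1 encodes the p85α regulatory subunit of PI3-kinase (ENSMUSG00000041417, chromosome 13, 101680563 to 101768217). Its levels were 305, 132 and 166 CPM in flox vehicle mice and 120.4, 125 and 120.1 CPM in KO vehicle mice. Under MTX they were 160.1, 202 and 352 CPM in flox mice and 119, 118 and 143 CPM in KO mice. The 6 KO mice varied little, and the flox mice reached well above them, but replicate 3 of flox vehicle lay below replicate 4 of KO MTX. The log2 fold change of KO over flox was -0.72 (SE 0.32, adjusted p = 0.118 by edgeR) under vehicle and -0.91 (adjusted p = 0.136) under MTX, and Pik3r1 was called in neither.

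Akt1 and Akt2 encode serine/threonine kinases of the same family, of which AKT2 is the form known for insulin-stimulated glucose uptake and AKT1 is known for growth and survival in many cell types. Akt1 (ENSMUSG00000001729, chromosome 12, 112653821 to 112674884) was at 99.5, 101 and 92.0 CPM in flox vehicle mice and at 135, 150.3 and 155 CPM in KO vehicle mice. It was at 109.5, 125 and 84.2 CPM in flox MTX mice and at 169.8, 189 and 156 CPM in KO MTX mice. Akt1 was the 1 gene of the 9 for which all 6 KO mice lay above all 6 flox mice. It rose in KO mice under vehicle by 0.59 on the log2 scale (SE 0.15, adjusted p = 0.0148 by edgeR), which is close to the fold limit, and the log2 fold change under MTX was 0.69 (adjusted p = 0.104).

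Akt2 (ENSMUSG00000004056, chromosome 7, 27591552 to 27640826) was at 414, 273 and 451 CPM in flox vehicle mice and at 305, 244 and 193 CPM in KO vehicle mice. In the MTX groups it was at 413, 266 and 591 CPM in flox mice and at 259, 185 and 271 CPM in KO mice. The genotypes overlapped under both treatments, because 1 flox mouse of each group lay within the range of the KO mice. The log2 fold change of KO over flox was -0.62 (SE 0.30, adjusted p = 0.150 by edgeR) under vehicle and -0.83 (adjusted p = 0.143) under MTX.

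Phlpp1 encodes a phosphatase that removes phosphate from AKT (ENSMUSG00000044340, chromosome 1, 106171752 to 106394250). Its levels were 15.4, 16.2 and 15.0 CPM in flox vehicle mice and 14.4, 14.9 and 14.5 CPM in KO vehicle mice. They were 13.7, 14.4 and 17.3 CPM in flox MTX mice and 17.8, 18.6 and 16.5 CPM in KO MTX mice. Phlpp1 was the steadiest of the 9 genes, with a ratio of 1.36 between the highest and the lowest library, against 2.24 to 12.2 for the others. The log2 fold change of KO over flox was -0.09 (SE 0.13, adjusted p = 0.660 by edgeR) under vehicle and 0.22 (adjusted p = 0.324) under MTX.

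Foxo1 encodes the transcription factor that AKT keeps out of the nucleus (ENSMUSG00000044167, chromosome 3, 52268336 to 52353221). It was at 113, 83.4 and 109 CPM in flox vehicle mice and at 106, 101 and 66.2 CPM in KO vehicle mice. In flox MTX mice it was at 114, 140.4 and 212 CPM, and in KO MTX mice at 86.2, 68.9 and 104 CPM. The genotypes overlapped under vehicle and not under MTX, where the flox mice were the highest of the 4 groups. The log2 fold change of KO over flox was -0.16 (SE 0.26, adjusted p = 0.683 by edgeR) under vehicle and -0.85 (adjusted p = 0.115) under MTX.

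Slc2a4 encodes GLUT4, the insulin-regulated glucose transporter of fat and muscle (ENSMUSG00000018566, chromosome 11, 69942539 to 69948188). Its levels were 156, 67.6 and 116 CPM in flox vehicle mice and 66.7, 48.4 and 25.1 CPM in KO vehicle mice. Under MTX they were 83.1, 85.0 and 203 CPM in flox mice and 32.5, 16.7 and 45.1 CPM in KO mice. This was the widest range of the 9 genes, 12.2-fold over the 12 libraries. All KO mice were below all flox mice, but under vehicle the highest KO mouse nearly reached the lowest flox mouse. Slc2a4 fell in KO mice under vehicle (log2 fold change -1.28, SE 0.49, adjusted p = 0.0744 by edgeR), and its log2 fold change under MTX was -1.98 (adjusted p = 0.104).

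**Figure D1:**
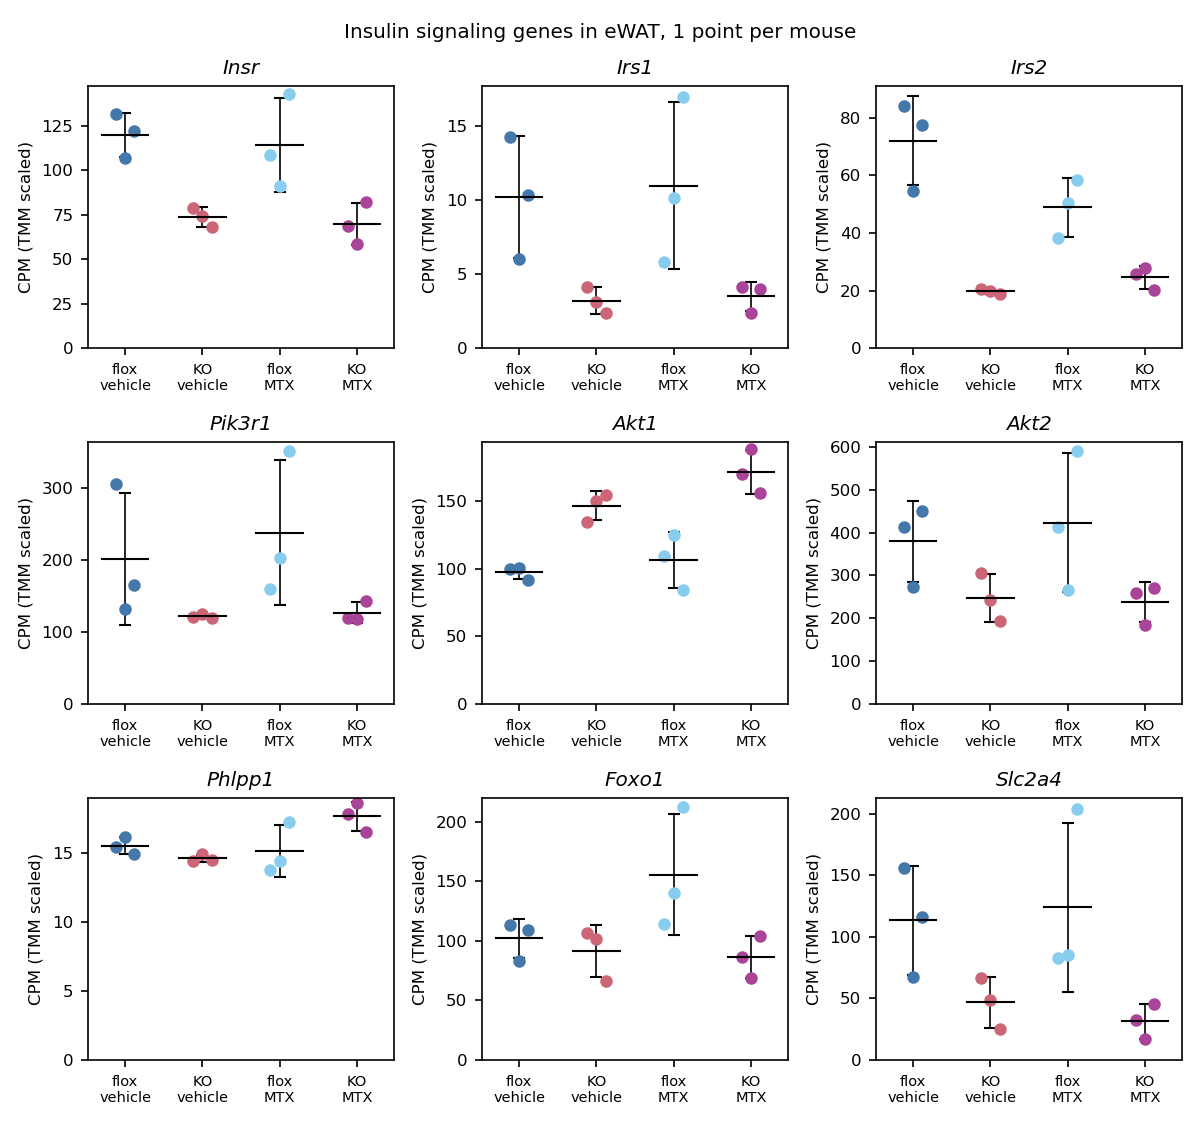
Level in CPM (linear axis from 0) of the 9 genes in the 4 groups, 1 point per mouse, with the group mean as a line and the SD over 3 mice as bars. Insr, Irs1, Irs2 and Slc2a4 sit lower in every KO mouse than in every flox mouse, Akt1 sits higher, and Phlpp1 is nearly level at 13.7 to 18.6 CPM.

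Under vehicle, 5 of the 9 genes passed the call limits (adjusted p below 0.1 and at least 1.5-fold) in KO against flox mice: Insr, Irs1, Irs2 and Slc2a4 lower and Akt1 higher. Of all genes tested, 31.7% passed in either direction, 17.8% lower and 13.9% higher. At an unadjusted p below 0.05, 6 of 9 genes passed, against 41% of all genes, and the 2 groups did not overlap for 7 of 9, against 48.1%. The median log2 fold change was -0.70 over the 9 genes and -0.06 over all genes. Without replicates 1 and 3 of flox vehicle, that group is replicate 4 alone, which still held epididymis markers at 1503 CPM. The spread of that single mouse is assumed in this fit to be that of the other groups. Irs2 alone of the 9 genes was called in that fit, at a log2 fold change of -1.97 (adjusted p = 0.0128 by edgeR), as were 7.07% of all genes. The log2 fold changes of the other 4 were then -0.72 for Insr, -1.68 for Irs1, -1.30 for Slc2a4 and 0.68 for Akt1, with adjusted p-values of 0.114 to 0.251. Without flox replicate 4, or without KO replicate 3, the calls were Insr, Irs1 and Irs2, and Slc2a4 was also not called without flox replicate 1 or KO replicate 2. Without flox replicate 3 alone, Pik3r1 and Akt2 were called as well, 7 of 9 against 25.4% of all genes.

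Under MTX, 0 of the 9 genes were called by edgeR in KO against flox mice, and 0% of all genes were. At an unadjusted p below 0.05, 8 of the 9 genes passed, all except Phlpp1, against 24.5% of all genes. DESeq2 called those 8 at its own adjusted p, against 14.5% of all genes. In a simulated vehicle comparison DESeq2 made 89 false calls beside 180 true ones, and edgeR 19 beside 164. Of the 8, Akt1 was higher and the other 7 were lower in KO mice. The median log2 fold change was -0.85 over the 9 genes and -0.05 over all genes. The genotypes did not overlap for 7 of 9 genes, against 26.8% of all genes. Without replicate 2 of flox MTX, edgeR called 8 of the 9 genes, against 20.8% of all genes. Without replicate 3 of flox vehicle, which enters this comparison through the shared estimate of the spread, it called 5, against 5.4% of all genes, and without replicate 1 of flox MTX it called 1, against 0.387% of all genes.

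The vehicle and MTX comparisons of genotype share no library, and 8 of 9 genes had the same sign in both, as did 69.3% of all genes tested. All 6 KO mice lay below all 6 flox mice for 4 of 9 genes, against 2.87% of all genes, and above them for 1, against 4.87%. Genotype was also permuted within each treatment (exact test, two-sided, 400 assignments, smallest possible p = 0.005, chosen after the values were seen). On the log2(CPM + 0.5) scale the average difference of KO minus flox was -0.69 for Insr, -1.46 for Irs1, -1.39 for Irs2, -0.73 for Pik3r1, 0.64 for Akt1 and -1.62 for Slc2a4. Each of these 6 genes reached the smallest possible p of 0.005 in the exact test (adjusted p = 0.0344 over all genes), as did 14.5% of all genes. Akt2 followed at -0.69 (exact p = 0.025, adjusted p = 0.0785), then Foxo1 at -0.50 (exact p = 0.045, adjusted p = 0.114) and Phlpp1 at 0.07 (exact p = 0.375, adjusted p = 0.497). In this test 8 of the 9 genes had a p of 0.05 or less, against 41.7% of all genes, and 7 had an adjusted p under 0.1, against 36.1%. Without flox vehicle replicates 1 and 3 the average differences were -0.71 for Insr, -1.51 for Irs1, -1.46 for Irs2, -0.64 for Pik3r1, 0.68 for Akt1, -0.83 for Akt2, 0.09 for Phlpp1, -0.55 for Foxo1 and -1.67 for Slc2a4, each with the same sign as with all libraries.

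MTX against vehicle asks whether the drug itself moved these genes. In flox mice 0 of 9 genes were called by edgeR, against 24.2% of all genes, and 2 of 9 passed an unadjusted p below 0.05, against 34.2%. Irs2 had an adjusted p of 0.0698 by edgeR with a log2 fold change of -0.56 (SE 0.20), under the fold limit, and with no fold limit this 1 gene of 9 and 28.1% of all genes were called. Foxo1 had a log2 fold change of 0.61 (SE 0.26, adjusted p = 0.124 by edgeR, and 0.0976 by DESeq2, which called it as 1 of the 9 and 25.8% of all genes). Its 3 flox MTX mice, at 114 to 212 CPM, lay just above the 3 flox vehicle mice, at 83.4 to 113 CPM, and it was the 1 gene of 9 with no overlap, against 28.3% of all genes. Without flox vehicle replicates 1 and 3 these values were -0.66 for Irs2 (adjusted p = 0.272) and 0.51 for Foxo1 (adjusted p = 0.676) by edgeR, with 2.9% of all genes called.

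In KO mice 0 of 9 genes were called for MTX against vehicle by edgeR, as were 0% of all genes. By edgeR 0 of 9 passed an unadjusted p below 0.05 there, against 7.97% of all genes, and the 2 groups did not overlap for 2 of 9 genes, Akt1 and Phlpp1, against 20.7%. For the interaction of genotype and treatment, 0 of 9 genes were called by edgeR, against 0.989% of all genes, and 1 of 9 passed an unadjusted p below 0.05, against 15% of all genes. That gene was Irs2, for which the difference between genotypes was smaller under MTX: its interaction was 0.88 on the log2 scale (SE 0.28, adjusted p = 0.188 by edgeR, and 0.0827 by DESeq2, which called it and 6.67% of all genes). Without flox vehicle replicates 1 and 3 the interaction of Irs2 was 0.98 (adjusted p = 0.506 by edgeR). The MTX and genotype comparisons of the flox vehicle group share those 3 libraries.

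Levels can be compared between genes after division by the length of the gene model, as CPM per kb. That length joins all annotated exons of a gene, so the comparison is approximate where only some isoforms are expressed. In flox vehicle mice Akt2 had the highest mean level (53.2 CPM per kb), followed by Slc2a4 (32.6), Akt1 (23.8) and Pik3r1 (19.9), and neighbours in this order overlapped among the 3 mice. A gap separated them from Foxo1 (11.8), Irs2 (11.4) and Insr (8.75 CPM per kb), which overlapped with their neighbours. Phlpp1 (2.30) and Irs1 (1.11 CPM per kb) followed, each below the range of the gene before it. In KO vehicle mice the order was Akt1 (35.8), Akt2 (34.6), Slc2a4 (13.4), Pik3r1 (12.1), Foxo1 (10.5), Insr (5.38), Irs2 (3.12), Phlpp1 (2.16) and Irs1 (0.349 CPM per kb). Akt1 and Akt2 overlapped there and stood clear of the next gene, and Slc2a4 overlapped with Pik3r1 and Pik3r1 with Foxo1. From Insr down each KO vehicle level was clear of its neighbours.

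In flox MTX mice Akt2 (59.4) and Slc2a4 (35.6 CPM per kb) were again at the top, followed by Akt1 (25.9), Pik3r1 (23.6) and Foxo1 (17.95 CPM per kb), each overlapping with the next. After a gap came Insr (8.31) and Irs2 (7.75), which overlapped, then Phlpp1 (2.24) and Irs1 (1.20 CPM per kb), each clear of the gene before it. In KO MTX mice Akt1 (41.8) and Akt2 (33.5) were again clear of the rest, and Slc2a4 (9.04 CPM per kb) came after Pik3r1 (12.6) and Foxo1 (9.96). Insr (5.09) and Irs2 (3.90 CPM per kb) came next, and from Pik3r1 to Irs2 neighbours overlapped. Phlpp1 (2.61) and Irs1 (0.381 CPM per kb) were clear of the genes before them. Irs1 was the lowest of the 9 genes in every group.

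Because Akt1 and Akt2 lay on different sides of 0, their ratio was computed in each mouse, a measure picked after the values were seen. Akt2 over Akt1 (per kb) was 2.26 ± 0.64 (SD, n = 3) in flox vehicle mice and 0.98 ± 0.30 in KO vehicle mice. It was 2.47 ± 1.43 in flox MTX mice and 0.81 ± 0.22 in KO MTX mice. Per kb of gene model, Akt2 was thus above Akt1 in all 6 flox mice, and the ratio was at most 1.30 in the 6 KO mice. The genotypes did not overlap under vehicle (1.56 to 2.82 against 0.714 to 1.30) or under MTX (1.22 to 4.03 against 0.565 to 1.00). The log2 difference within treatment was -1.34 (exact permutation p = 0.005), and it was -1.52 without flox vehicle replicates 1 and 3.

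Slc2a1 encodes GLUT1, the transporter that takes up glucose without insulin. The ratio of Slc2a4 over Slc2a1 per kb was 6.94 ± 3.99 in flox vehicle mice and 2.10 ± 1.15 in KO vehicle mice (SD, n = 3 each). Under MTX it was 8.87 ± 6.61 in flox mice and 1.30 ± 0.70 in KO mice. The ratio was lower with the KO genotype by 2.21 on the log2 scale within treatment (exact permutation p = 0.01), the groups overlapping under vehicle and not under MTX. For Irs2 over Irs1 the group means lay between 7.22 and 11.2, and the genotypes differed by less than the spread between mice (log2 difference 0.18, exact permutation p = 0.555). Insr over Akt1 differed by -1.34 on the log2 scale (exact permutation p = 0.005). That p was fixed by the levels already given, since every KO mouse was below every flox mouse for Insr and above for Akt1. Ratios of other gene pairs were not computed. Without flox vehicle replicates 1 and 3 the differences were -2.33 for Slc2a4 over Slc2a1, 0.17 for Irs2 over Irs1 and -1.40 for Insr over Akt1.

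**Figure D2:**
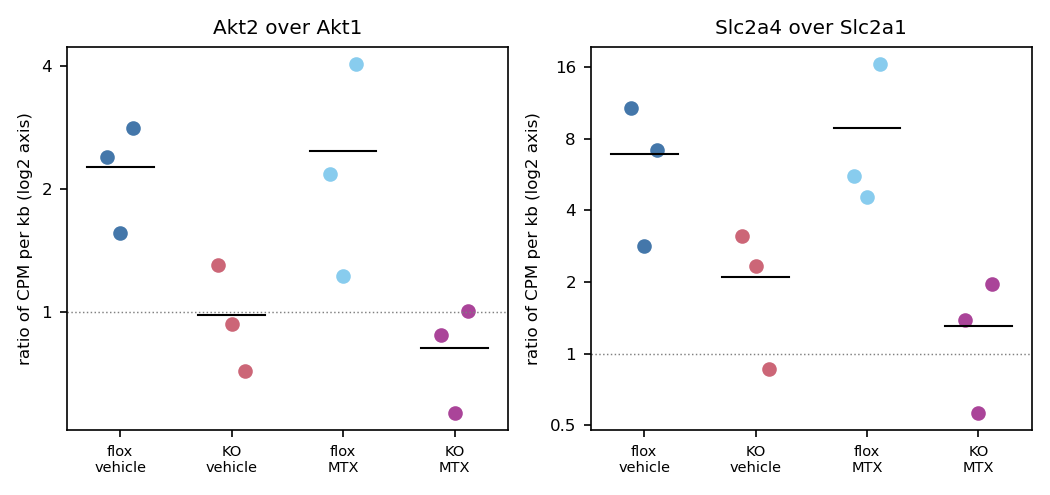
Ratio of CPM per kb on a log2 axis, 1 point per mouse with the group mean as a line, for Akt2 over Akt1 and Slc2a4 over Slc2a1. The Akt2 to Akt1 ratio runs from 1.22 to 4.03 in flox mice and from 0.565 to 1.30 in KO mice, with the dotted line at equal levels.

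Several of these genes are known to be abundant in adipocytes, so the members were next set against 20 adipocyte genes. The adipocyte index, the geometric mean of those 20 genes, was 1249 ± 421 CPM in flox vehicle mice, 831 ± 250 CPM in KO vehicle mice, 1518 ± 558 CPM in flox MTX mice and 661 ± 258 CPM in KO MTX mice (SD, n = 3). Its KO minus flox difference was -0.90 on the log2 scale over both treatments (exact permutation p = 0.025). Within a treatment the exact permutation p was 0.3 under vehicle and 0.1, the smallest possible, under MTX. The 20 genes did not move as 1. With TMM scaling, 13 were lower and 7 higher in KO mice under vehicle, and 19 lower and 1 higher under MTX. The largest decreases under vehicle were those of Cfd (log2 fold change -3.13), Adrb3 (-2.49) and Retn (-1.87).

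With each library scaled by the index in place of TMM, the median log2 fold change of all genes in KO against flox mice moved to 0.47 under vehicle and 1.21 under MTX, so values on this scale are read against those medians. Under vehicle 0 of 9 genes were called by edgeR, against 16.8% of all genes (2 of 9 and 25.4% at an unadjusted p below 0.05). The log2 fold changes were -1.26 for Irs2 (SE 0.49, adjusted p = 0.106), -1.07 for Irs1 (SE 0.52, adjusted p = 0.208), -0.72 for Slc2a4 (adjusted p = 0.254) and 1.13 for Akt1 (adjusted p = 0.182). Insr moved from -0.70 on the TMM scale to -0.15, and Pik3r1 and Akt2 both to -0.05. Phlpp1 at 0.43 and Foxo1 at 0.37 changed sign between the scalings. The members' median was -0.05. With TMM scaling and the index as a covariate instead, 3 of 9 genes were called under vehicle, Irs1, Irs2 and Slc2a4, against 29.6% of all genes. Without flox vehicle replicates 1 and 3 the adipocyte scale again gave 0 of 9 called by edgeR, against 0.195% of all genes, whose median was then 0.84. The log2 fold changes in that fit were -1.12 for Irs2, -0.90 for Irs1, -0.57 for Slc2a4 and 1.56 for Akt1, with adjusted p-values of 0.453 to 0.526.

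Under MTX, edgeR on the adipocyte scale called 2 of 9 genes, Akt1 (log2 fold change 1.93, SE 0.53) and Phlpp1 (1.54, SE 0.53), both higher in KO mice at an adjusted p of 0.0585, against 52.6% of all genes and 51.8% higher. The shares of members called on this scale were thus below the background. Both calls were lost when the index was taken as the median of ratios or as a covariate. They were also lost without replicate 1 or 4 of flox MTX or replicate 3 of KO MTX. In each of these settings 0% of all genes were called, so the loss was not particular to these genes. Insr (0.57), Irs2 (0.35), Pik3r1 (0.42), Akt2 (0.48) and Foxo1 (0.40) changed sign from the TMM scale, and Irs1 (-0.44) and Slc2a4 (-0.76) stayed negative. The members' median was 0.42, below the median of all genes. For MTX against vehicle, 0 of 9 genes were called on this scale by edgeR in flox mice (12% of all genes) and in KO mice (0% of all genes), and 0 for the interaction (1.95%).

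**Figure D3:**
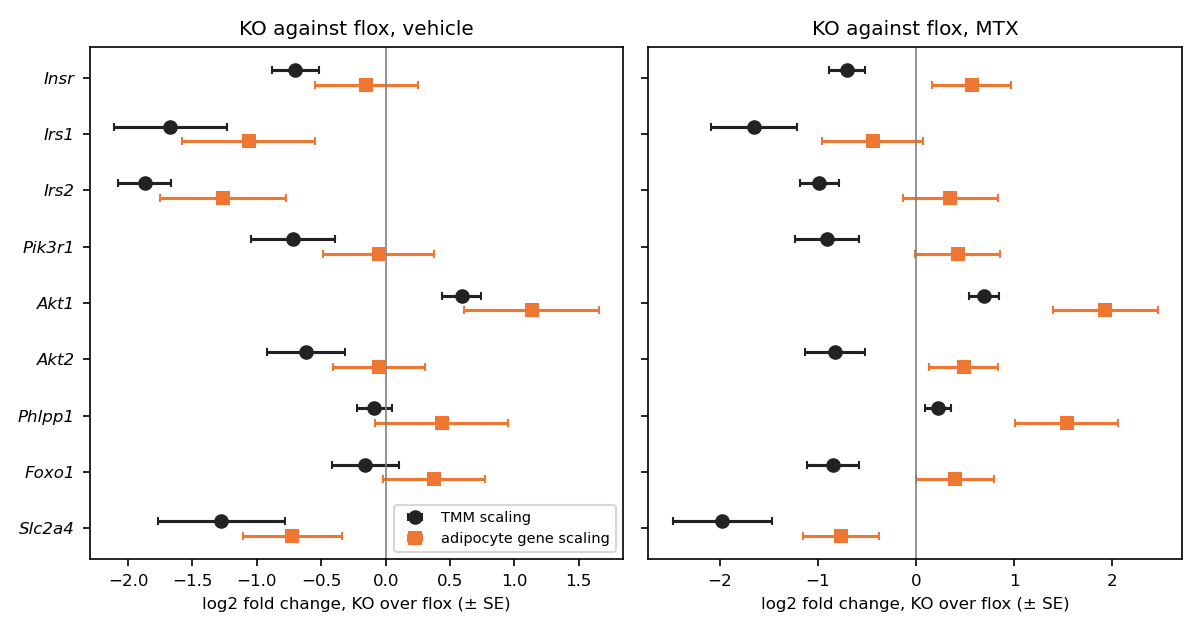
Log2 fold change of KO over flox with its SE for the 9 genes, under vehicle and under MTX, with TMM scaling (circles) and with scaling to the 20 adipocyte genes (squares). Every value shifts upward with the adipocyte scaling, Slc2a4 stays below 0 in both panels (-0.72 and -0.76), and Insr moves from -0.70 to -0.15 under vehicle and from -0.71 to 0.57 under MTX.

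As a share of the index in each mouse, Slc2a4 was at 10.1%, 8.80% and 8.11% in flox vehicle mice and at 6.09%, 6.06% and 4.196% in KO vehicle mice. It was at 5.62%, 8.67% and 9.70% in flox MTX mice and at 4.18%, 4.58% and 5.37% in KO MTX mice. As a share of the index, Slc2a4 did not overlap between KO and flox mice of the same treatment, with the KO mice lower. EdgeR on the adipocyte scale did not call it (adjusted p = 0.254 under vehicle and 0.114 under MTX). Irs1 and Irs2 also did not overlap under vehicle, with KO mice lower, nor did Akt1, Akt2 and Phlpp1 under MTX, with KO mice higher. The share of all genes without overlap on this scale is not given here. Of the 20 genes of the index itself, 3 were called lower and 1 higher by edgeR on this scale under each treatment. Of all 18702 genes, 1313 were called lower and 1826 higher under vehicle, and 154 lower and 9683 higher under MTX. Those lower in the index were Retn (log2 fold change -1.34 under vehicle and -1.73 under MTX), Adrb3, the beta-3 adrenergic receptor (-1.92 and -1.69), and Cfd, the adipokine adipsin (-2.53 and -2.33). Those higher were Mrap under vehicle (1.08) and Cd36 under MTX (1.37). For Slc2a4 relative to the index, genotype permuted within treatment gave a log2 difference of -0.72 (exact permutation p = 0.005, adjusted p = 0.0357 over all genes). Akt1 (1.54, exact permutation p = 0.01, adjusted p = 0.0426) and Phlpp1 (0.96, exact permutation p = 0.025, adjusted p = 0.0593) were higher in KO mice on this scale. These 3 of 9 genes had a p of 0.05 or less, against 56.4% of all genes, whose median difference on this scale was 0.84. Without flox vehicle replicates 1 and 3 the differences were -0.65 for Slc2a4, 1.71 for Akt1 and 1.12 for Phlpp1.

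The other genes did not reach it, and Irs1 lay just outside (-0.56, exact permutation p = 0.055). Insr was at 6.84% to 13.9% of the index in flox mice and at 7.21% to 16.1% in KO mice, and its difference was 0.20 (exact permutation p = 0.43). Akt2 was a nearly constant share, 26.8% to 35.6% of the index in 11 of 12 libraries and 50.9% in replicate 3 of KO MTX, the library with the lowest index, and its difference was 0.20 (exact permutation p = 0.16). For Irs2, Pik3r1 and Foxo1 the differences were -0.50, 0.17 and 0.40 (exact permutation p = 0.23, 0.565 and 0.07).

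Across the 12 libraries, log2 levels of Akt2 (r = 0.96), Slc2a4 (0.95), Insr (0.89), Irs1 (0.84), Foxo1 (0.83), Pik3r1 (0.76) and Irs2 (0.60) rose and fell with the index, and those of Akt1 (-0.84) and Phlpp1 (-0.36) ran against it. These are descriptions over 12 libraries that share the 4 groups. Without the libraries farthest from the median index (KO MTX replicate 3 and flox MTX replicate 4), r was 0.96 for Akt2, 0.89 for Slc2a4, 0.80 for Insr and -0.72 for Akt1. With the group means removed, r was 0.94 for Akt2, 0.92 for Slc2a4, 0.90 for Insr, -0.79 for Akt1 and 0.25 for Irs2, so that Irs2 followed the index between groups more than between mice of a group. The slope of log2 level on the log2 index was 1.45 for Slc2a4, 1.09 for Irs1 and 0.53 for Insr.

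**Figure D4:**
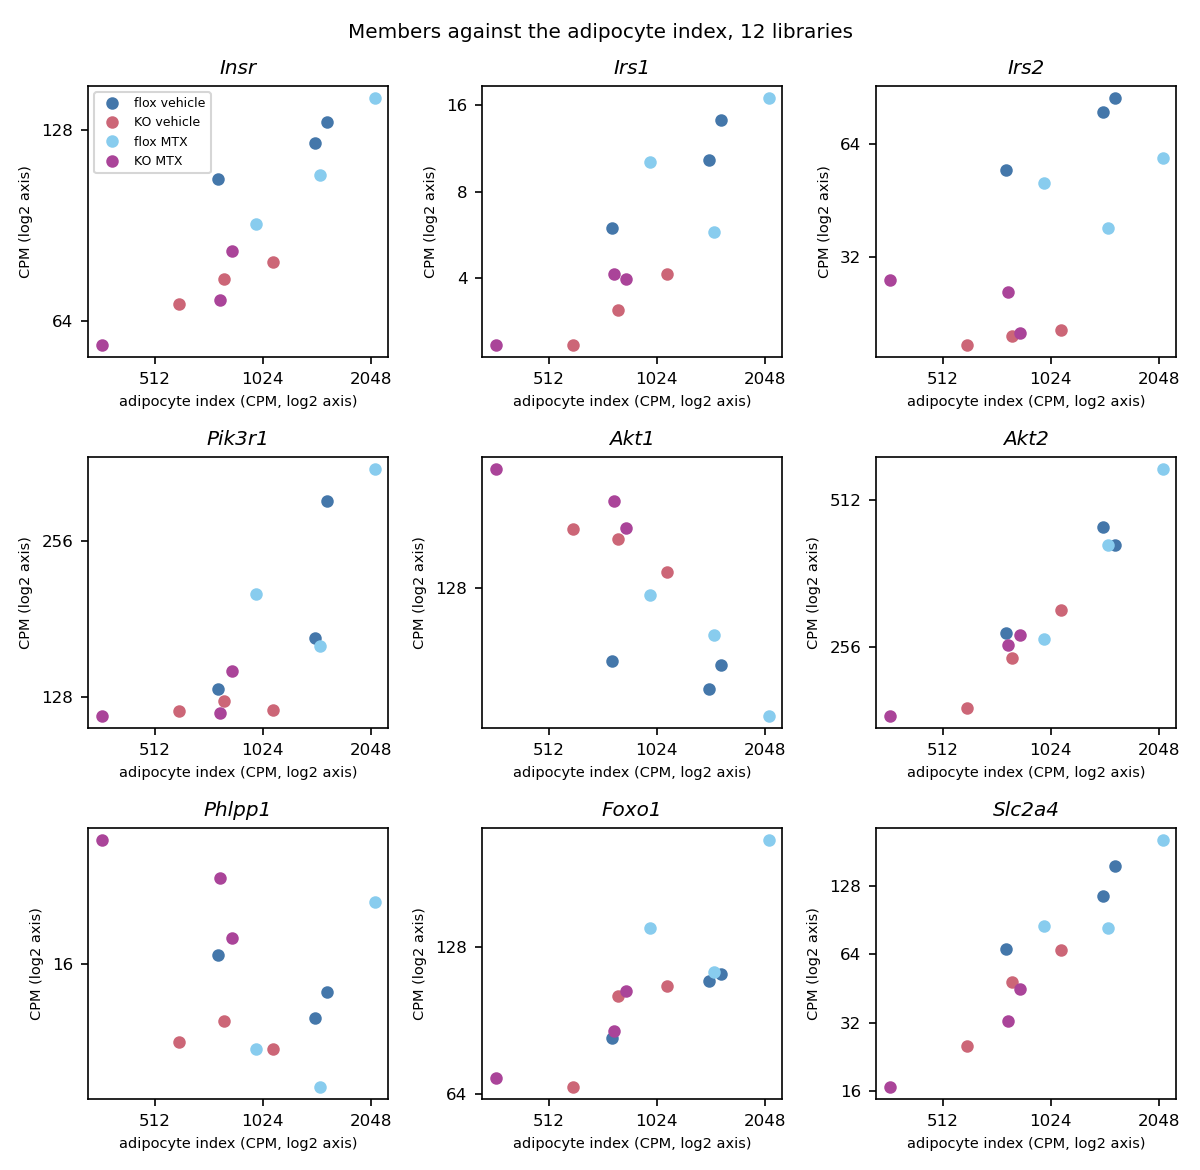
Level of each gene against the adipocyte index, both in CPM on log2 axes, for the 12 libraries coloured by group. Akt2 and Slc2a4 follow the index closely (r = 0.96 and 0.95), Akt1 runs against it (r = -0.84), and for Irs2 the 6 KO mice lie below the 6 flox mice with no overlap in level.

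Among the 10155 genes with a mean of at least 10 CPM, the genes whose log2 levels over the 12 libraries were most like each member were listed by Pearson r. For Slc2a4 they were Retn (0.995), Car3 (0.993) and Aoc3 (0.990), and Retn, which encodes the adipokine resistin, is itself in the adipocyte list. For Insr they were Nrip1 (0.987), Bag4 (0.984) and Aldh5a1 (0.984), for Irs1 Sik2 (0.986), Apcdd1 (0.974) and Adrb3 (0.974), and for Irs2 Prepl (0.949), Dusp4 (0.943) and Ash1l (0.928). Pik3r1 was closest to Sfxn1 (0.969), Fam13a (0.968) and Sqor (0.966), and Akt2 to Gnpat (0.986), Abhd15 (0.985) and Ppip5k1 (0.981). Akt1, on the other side, was closest to Myo1e (0.984), Sh3bp2 (0.984) and Myof (0.980). Foxo1 was closest to Fn3krp (0.943), Amotl1 (0.936) and Trip4 (0.931), and Phlpp1 had the lowest values, with Tox4 (0.905), Ap1ar (0.888) and Hnrnpm (0.870). Among the members themselves, Insr and Akt1 had an r of -0.97 and Insr and Slc2a4 an r of 0.95.

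The rest of the pathway was described with a list of 97 further genes, of which 94 were tested and Ins1, Ins2 and Irs4 had too few counts. In KO against flox mice under vehicle 17 were called higher, 16 lower and 61 not called by edgeR, which is 35.1% called against 31.7% of all genes, with a median log2 fold change of 0.05. Without replicates 1 and 3 of flox vehicle 5 were called, 5.32% against 7.07% of all genes in that fit. The calls with all libraries ran in both directions. Of all genes tested, 13.9% were called higher and 17.8% lower, and the calls by role below are read against these shares. Counts of calls by role without replicates 1 and 3 are not given here.

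Of the 5 tested ligands and receptors, Igf2r was called higher and Igf1r and Insrr lower. Igf1r, the receptor of insulin-like growth factor 1, had a log2 fold change of -0.93 (SE 0.28, adjusted p = 0.0272 by edgeR), and its ligand Igf1 had 0.44 (adjusted p = 0.273). Insrr, an orphan relative of the insulin receptor, was called at -2.29 (adjusted p = 0.0227) on levels of 2.00, 4.44 and 0.97 CPM in flox vehicle mice, highest where the epididymis markers were highest. Without flox replicates 1 and 3 neither was called, Igf1r at -0.27 (adjusted p = 0.610 by edgeR) and Insrr at -0.94 (adjusted p = 0.502). Among the adaptors, Grb2 and Cbl were called higher.

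Of 7 PI3-kinase subunits, Pik3cd, Pik3cg and Pik3r5 were called higher and Pik3r3 lower. Pik3cg and Pik3r5, the catalytic and regulatory subunits of the form known from leukocytes, had log2 fold changes of 1.73 (SE 0.46, adjusted p = 0.0158 by edgeR) and 2.22 (SE 0.45, adjusted p = 0.00536). Without flox replicates 1 and 3 these were 1.24 (adjusted p = 0.286) and 2.36 (adjusted p = 0.125), and neither was called. Among the genes of AKT activation and the mTOR complexes, Pdpk1 and Mtor were called lower. The macrophage marker sums were over 4 times as high in every KO vehicle mouse as in any flox vehicle mouse, and their part in these calls was not tested.

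The inhibitors and phosphatases held 18 genes, of which Inpp5d, Ptprj, Socs3 and Trib3 were called higher and Phlpp2, Ptprf and Enpp1 lower. Inpp5d, which encodes the lipid phosphatase SHIP1 of blood cells, had a log2 fold change of 2.42 (SE 0.40, adjusted p = 0.00335 by edgeR), Socs3, an inhibitor of receptor signaling, 1.29 (SE 0.37, adjusted p = 0.0228) and Trib3, a pseudokinase that binds AKT, 0.92 (adjusted p = 0.0883). Phlpp2, the paralog of Phlpp1, was at 21.0 to 25.6 CPM in flox vehicle mice and 12.9 to 15.8 CPM in KO vehicle mice, and it fell by 0.76 on the log2 scale (SE 0.14, adjusted p = 0.00429). Enpp1 had -2.95 (SE 0.67, adjusted p = 0.00806), with flox vehicle levels of 62.2, 144 and 21.8 CPM that were highest in replicate 3. Ptpn1 (0.57, adjusted p = 0.0852 by edgeR), a phosphatase of the insulin receptor, was not called. Without flox replicates 1 and 3, Inpp5d had 2.11 (adjusted p = 0.112 by edgeR), Socs3 1.40 (adjusted p = 0.186), Trib3 0.71 (adjusted p = 0.456), Phlpp2 -0.58 (adjusted p = 0.116) and Enpp1 -1.15 (adjusted p = 0.306), and none of these was called.

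Of 11 AKT substrates, Pde3b, the phosphodiesterase through which insulin restrains lipolysis, was called lower (log2 fold change -1.11, SE 0.40, adjusted p = 0.0590 by edgeR), and without flox replicates 1 and 3 it was not (-1.27, adjusted p = 0.142). Tbc1d4, the brake on GLUT4 vesicles that AKT releases, had -0.47 (adjusted p = 0.200). Among 14 genes of GLUT4 vesicle traffic, Stxbp3 was called higher and Sort1 and Vamp2 lower.

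Among the glucose transporters and hexokinases, Hk3 was called higher and Slc2a3, Slc2a12 and Hk2 lower. Hk3, the hexokinase of myeloid cells, was at 5.31 to 10.4 CPM in flox vehicle mice and 65.8 to 159.9 CPM in KO vehicle mice (log2 fold change 3.64, SE 0.71, adjusted p = 0.00473 by edgeR). Hk2, the insulin-regulated hexokinase of fat and muscle, fell by 1.17 on the log2 scale (SE 0.31, adjusted p = 0.0155). Without flox replicates 1 and 3 neither was called, Hk3 at 3.29 (adjusted p = 0.144 by edgeR) and Hk2 at -1.06 (adjusted p = 0.184). Slc2a3, which encodes GLUT3, was at 64.1, 107 and 40.6 CPM in flox vehicle mice and at 8.46 to 9.53 CPM in KO vehicle mice (log2 fold change -2.99, SE 0.36, adjusted p = 0.00276). Its flox vehicle levels followed the order of the epididymis markers. Without replicates 1 and 3 the log2 fold change of Slc2a3 was -2.19, set against replicate 4 alone, which still held epididymis markers at 1503 CPM. Slc2a1 had 0.39 (adjusted p = 0.226). Of 14 FOXO target genes, Sesn1, Txnip, Cited2 and Fbxo32 were called higher and none lower, against 13.9% and 17.8% of all genes. These calls rest on the flox vehicle group with all its replicates. Pdk4, which restrains glucose oxidation, had 1.10 (adjusted p = 0.129 by edgeR).

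For KO against flox under MTX, 0 of these 94 genes were called by edgeR. DESeq2 called 23, or 24.5% of the list, against 14.5% of all genes, and 36 passed an unadjusted p below 0.05 by edgeR, 38.3% against 24.5% of all genes. The 14 FOXO targets had 6 positive and 8 negative log2 fold changes in this comparison, which holds no flox vehicle library, with a median of -0.08. For MTX against vehicle in flox mice edgeR called 12 higher and 9 lower, 22.3% against 24.2% of all genes. Those higher included the FOXO targets Pdk4 (log2 fold change 1.57, SE 0.52, adjusted p = 0.0550 by edgeR) and Cited2 (1.05, SE 0.19, adjusted p = 0.00629), Pik3cd (1.33, adjusted p = 0.0334) and Inpp5d (1.74, SE 0.40, adjusted p = 0.0143). Of the 14 FOXO targets 5 were called higher there, namely Pdk4, Sesn1, Sesn3, Txnip and Cited2, against 8.09% of all genes called higher, and this comparison shares the 3 flox vehicle libraries with that of genotype under vehicle. Those lower included Enpp1 (-2.89, adjusted p = 0.0149), Slc2a3 (-2.30, SE 0.35, adjusted p = 0.00436) and Ptprf (-1.05, adjusted p = 0.0181), against the same flox vehicle libraries as above. Without replicates 1 and 3 of that group 2 of the 94 genes were called, Cited2 (1.24, adjusted p = 0.0668) and Slc2a3 (-1.499, adjusted p = 0.0843). Pdk4 had 1.38 (adjusted p = 0.288 by edgeR), Pik3cd 1.05 (adjusted p = 0.535), Inpp5d 1.43 (adjusted p = 0.385), Enpp1 -1.09 (adjusted p = 0.551) and Ptprf -0.65 (adjusted p = 0.353) in that fit. In KO mice MTX called 0 of 94 genes by edgeR, as it did 0% of all genes. There 7 passed an unadjusted p below 0.05, 7.45% against 7.97% of all genes. The interaction called 1, Slc2a3, which is 1.06% against 0.989% of all genes. On the adipocyte scale the median of the 94 genes was 0.60 under vehicle and 1.21 under MTX, near those of all genes (0.47 and 1.21).

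**Figure D5:**
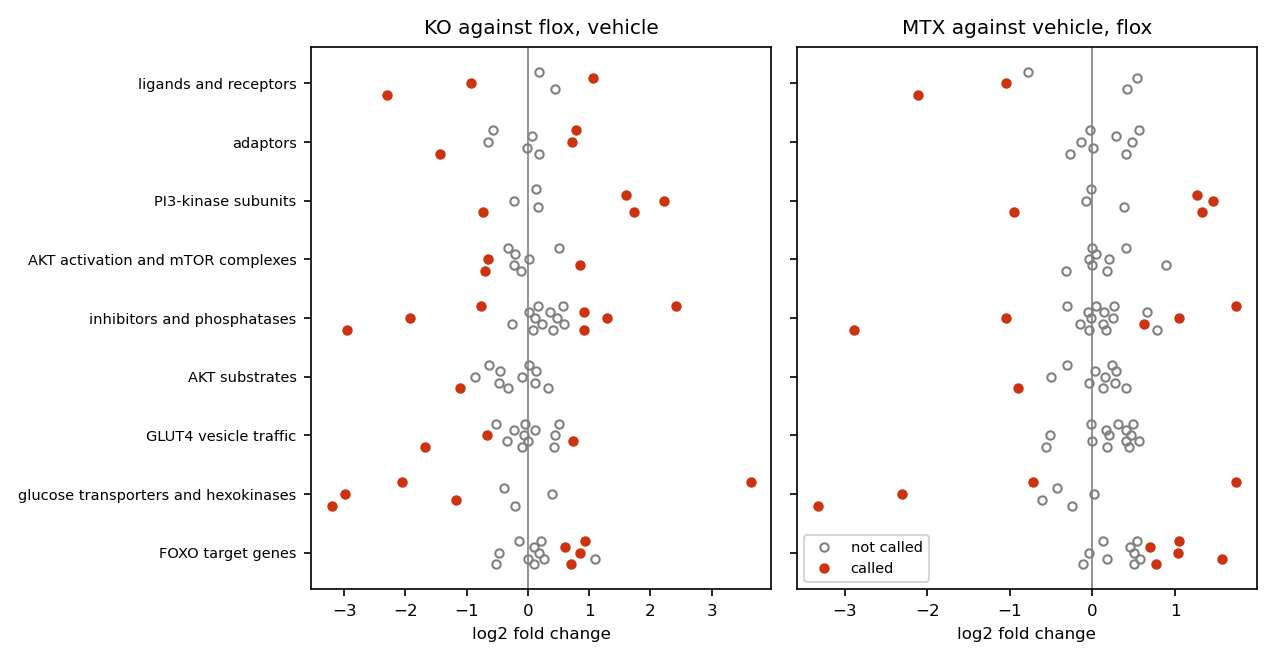
Log2 fold change of the 94 tested pathway genes by role, for KO against flox under vehicle and MTX against vehicle in flox mice, with called genes filled and the others open. Called genes lie on both sides of 0 in 7 of 9 roles in the left panel and in 3 of 9 in the right, and both panels share the 3 flox vehicle libraries.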

How the data were processed

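RNA-seq of eWAT from 12 mice (4 groups of 3, grouped by the sample labels) was analysed from the deposited table. Its values are raw read counts per Ensembl gene (release 79, mm10) that the authors made with a pipeline of trimming (Trimmomatic 0.36), alignment (STAR 2.5.2b) and counting (featureCounts, Subread 1.5.2), tools and versions as in the submitters' processing notes. Strand setting and handling of multimapped reads were not given in the sources used here. The labels describe polyA RNA and the methods ribosomal depletion, and which applies is not known here. CPM, tests and indices were computed from these counts.

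Tests used R 4.3.3 and edgeR 4.0.16: TMM factors, filterByExpr by group, 1 coefficient per group over 12 libraries, the quasi-likelihood test (glmQLFit, glmQLFTest) and Benjamini-Hochberg adjustment over 18702 genes. A gene was called at an adjusted p below 0.1 and at least 1.5-fold. The common dispersion was 0.100. Exact permutation tests were two-sided, with genotype tests over both treatments on log2(CPM + 0.5), and 3 against 3 mice cannot go below 0.1. For the adipocyte scale, each library was divided by the geometric mean of 20 adipocyte genes. Alternatives were DESeq2 1.42.0, other scalings, filters and limits, the replicate block, 6 libraries alone and libraries left out. Procedures were tested on simulated data with 200 genes changed 4-fold in KO vehicle mice. EdgeR recovered 164 of them with 19 false calls under TMM, and 163 with 33 on the adipocyte scale. DESeq2 recovered 180 with 89 false calls. Counts of the 12 library pairs within groups were compared by chi-square, and none was a duplicate (12.9 per degree of freedom at the least). Depth sets a limit of 0.125 to 0.154 CPM for a count of 0 (3 counts, counting error only).

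The 9 members, the 97 pathway genes, the marker lists and the tests were chosen with earlier results of these data known. Besides the members, the genes named with values are, per comparison, up to 4 called genes per direction with the largest change and no overlap, 12 fixed pathway genes and, for each member, the 3 most similar genes. Some genes that this rule selects are not reported here. The labels do not say more of the mice than group and number, so p-values measure the spread between these samples.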

Additional observations from a re-analysis of the deposited data

Results flagged for a closer look

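Slc2a3 (GLUT3) differed between genotypes in its response to MTX, with an interaction of 2.49 on the log2 scale (SE 0.49, adjusted p = 0.0830 by edgeR). Its levels were 64.1, 107 and 40.6 CPM in flox vehicle mice and 10.5, 15.2 and 17.3 CPM in flox MTX mice, against 8.46 to 9.53 CPM in KO vehicle mice and 6.48, 12.9 and 11.1 CPM in KO MTX mice. Without replicates 1 and 3 of flox vehicle, the libraries with the highest epididymis markers, the interaction was 1.69 (adjusted p = 0.447).

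For Tbc1d1, a brake on GLUT4 vesicles related to Tbc1d4, every flox MTX mouse was below and every KO MTX mouse above the vehicle mice of its genotype. Its levels were 35.1, 79.8 and 32.0 CPM in flox vehicle, 26.8, 29.5 and 22.2 CPM in flox MTX, 30.9 to 31.9 CPM in KO vehicle and 37.6, 44.7 and 33.3 CPM in KO MTX mice. The log2 fold changes of MTX over vehicle, -0.90 in flox and 0.30 in KO mice, differed by 1.20. The opposite movement was noticed from the values and not tested on its own, and the edgeR interaction of this gene had an adjusted p of 0.221. The 79.8 CPM belongs to flox vehicle replicate 3, the library with the highest epididymis markers. Without it the log2 fold change in flox mice was -0.36 (adjusted p = 0.204 by edgeR) and the interaction 0.65 (adjusted p = 0.309).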

How the results depend on the processing

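The 5 calls among the members in KO against flox under vehicle became 2 at a log2 fold limit of 1.5, 3 to 7 with 1 library left out (3 without flox replicate 4 or KO replicate 3), and 1 without flox replicates 1 and 3 (an alternative added after the data were seen). The 0 calls under MTX became 8 with DESeq2 (14.5% of all genes), 5 without the filter (2.53%), 6 when every library had to hold at least 10 counts (10.6%), and 0 to 8 with 1 library left out. For MTX in flox mice the 0 became 1 with DESeq2, with library size alone, with at least 10 counts and with no fold limit, and 0 to 1 with 1 library left out. The interaction gave 1 with DESeq2.

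Of the pathway genes, the 33 calls under vehicle became 12 at the log2 limit and 5 without flox replicates 1 and 3. The 0 under MTX became 23 with DESeq2, 10 with no filter, 15 with at least 10 counts and 0 to 34 with 1 library left out (11 without flox replicate 3, 34 without flox MTX replicate 2). The 21 for MTX in flox mice became 7 at the log2 limit, 7 with the 6 libraries alone, 2 without flox replicates 1 and 3, and 6 (without flox replicate 3) to 27 with 1 library left out. The 1 of the interaction became 5 with DESeq2, 2 with no filter, 0 with at least 10 counts, 0 without flox replicates 1 and 3, and 0 to 7 with 1 library left out (7 without flox replicate 4, and 0 without flox 1 or 3, any KO vehicle replicate, flox MTX 2 or KO MTX 3 or 4).

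Relative to adipocyte genes, the 0 member calls under vehicle became 1 with the median of ratios, 3 with the index as covariate and 0 to 1 with 1 library left out (Akt1 without flox replicate 3, and Irs2 without flox MTX 2 or 4 or KO MTX 3 or 4). The 2 under MTX became 0 with the median of ratios or the covariate (0% of all genes in each), and 0 to 3 with 1 library left out.

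Whether replicate numbers pair the mice is not known here. The median r of residuals was 0.052 over 12 same-numbered pairs (-0.37 to 0.37) and -0.015 over the other 42 (-0.51 to 0.58). With so few mice per group these values cannot exclude a pairing. With the replicate block the members called under vehicle were 4, the pathway genes called for MTX in flox mice 10 and for the interaction 0, and the members called under vehicle on the adipocyte scale 4, with the other counts within 1.5 times.

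Akt1 lost its vehicle call on the fold limit under DESeq2, RLE factors, library size, at least 10 counts and the block, while Irs2 kept its call in each of these and without any 1 library. The vehicle log2 fold change of Foxo1 ranged from -0.28 to 0.039 with 1 library left out and changed sign, to 0.039, without KO replicate 3. The cause of these changes was not tested, beyond the smaller number of samples or genes that an alternative leaves. Depth was no limit for 8 members, and Irs1 rested on 50 to 328 counts.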
